A study of Mus musculus with 8 samples.

Results

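The Myc, Mxd and Myb network was followed here through 9 transcription factor genes of spleen neutrophils: the activator Myc, its obligate partner Max, the repressors Mxd1, Mxd3, Mxd4, Mxi1 and Mnt, the Max-like factor Mlx, and Myb. The members were chosen by name, as the core proteins of the network and Myb, and were found in the files by gene identifier. All 9 were among the 55414 genes listed, and all 9 were among the 16778 genes with enough counts to be tested. Neutrophils came from the spleens of WT mice and of Cxcr2-/- mice of the same FVB background, all 10 weeks old and housed free of specific and opportunistic pathogens, with no treatment and 4 libraries per group, from 4 animals per group. The deletion is in the germline, so every cell of a Cxcr2-/- mouse lacks this chemokine receptor and not the neutrophils alone. Per the study's methods, CD11b-bearing cells were first enriched on a selection kit and then sorted as F4/80- cells that stained for CD45, CD11b and Ly6G, and the RNA was depleted of ribosomal RNA before sequencing.

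Myc and Max bind DNA as a pair at a short sequence called the E-box, and switch on genes of growth, ribosome production and the cell cycle. The Mxd proteins, Mxi1 and Mnt compete for the same partner Max and bind the same sites, but bring in the Sin3 and histone deacetylase co-repressors, so that the balance between Myc and these repressors is thought to set whether a blood cell divides or differentiates. Mxd1 is known for its rise when granulocytes leave the cell cycle. Mlx, a relative of Max, pairs with the glucose-responsive Mondo proteins and also with Mxd1, Mxd4 and Mnt. Myb is a separate DNA-binding factor of blood progenitors that drives early granule genes in promyelocytes and is shut off as the cells mature.

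The E-box letters CACGTG were searched in the promoters of the network's own genes, because they are the site that the network's proteins read. RefSeq promoters of build GRCm38.p6, running from 250 bases before to 50 bases after a gene's start, were at hand for 8 of the 9 members, which gave 10 promoters since Mxi1 has several. Myc has no entry. The motif reads the same on both strands and was found in 4 of the 10, against 2349 of the 32851 promoters of all genes, or 7.15%. The 4 matches are shown as 30 bases of the gene's own strand, with the E-box in capitals.
Max, chr12:76962234-76962263, minus strand, motif starting 3 bases before the gene's start: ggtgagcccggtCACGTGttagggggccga
Mlx, chr11:101087238-101087267, plus strand, 40 bases before: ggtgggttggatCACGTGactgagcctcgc
Mnt, chr11:74830789-74830818, plus strand, 123 bases before: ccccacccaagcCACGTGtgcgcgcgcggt
Mxd4, chr5:34187912-34187941, minus strand, 219 bases before: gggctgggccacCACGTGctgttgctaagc
A match is a description of the letters and says nothing of binding in these cells, and the promoters of Mxd1, Mxd3, Mxi1 and Myb hold no CACGTG in this window.

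Between 34220182 and 46233555 counts fell on genes in the WT libraries and between 37549648 and 43789253 in the Cxcr2-/- libraries. Levels are given below as CPM, the count of a gene divided by the scaled total count of its library per 1e+06. The targeted gene followed its label: the mean of Cxcr2 was 1956 ± 221 CPM in WT, against 17.1 ± 3.46 CPM in the knockout (mean ± SD, n = 4 in each, as in all means below). The neutrophil genes S100a8, S100a9, Ly6g, Csf3r, Itgam, Ptprc, Retnlg and Mmp9 were present in all 8 libraries, with S100a8 at 8956 CPM or more. Of these 8, 5 were higher and 2 lower in Cxcr2-/-, and their sum was 34179 to 47813 CPM in WT and 68469.8 to 81985 CPM in the knockout. Markers of other cells were found too and differed between the groups: the summed level of 7 B cell markers was 71.4 to 153 CPM in WT and 30.8 to 71.6 CPM in Cxcr2-/-, and that of 9 monocyte, macrophage and dendritic markers was 445 to 543 CPM in WT and 202 to 299 CPM in Cxcr2-/-. Of the tested genes of these lists, 5 of 7 and 2 of 8 were lower in Cxcr2-/-, and none was higher. The T and NK cell list ran from 98.4 to 118 CPM in WT and 97.2 to 142 CPM in Cxcr2-/-, nearly all of it Cd3d, while Cd3e and Cd8a were too low to test. Of its 5 tested genes, 1 was higher in Cxcr2-/-, Nkg7, and 1 was lower, Cd4. Nkg7 passed in 16 and Cd4 in 14 of 16 alternative fits. Erythroid markers summed to at most 11.1 CPM, platelet markers to at most 5.67 CPM, and eosinophil and mast cell markers to 34.9 to 56.9 CPM over both groups, most of it Siglecf. The 3 testable genes of the last list all passed: Epx and Prg2 were higher (log2 fold change 2.78 and 2.87) and Siglecf lower (-0.57), while Mcpt8 was at 0 in all libraries. Erythroid markers were at 10.7 and 11.1 CPM in Cxcr2-/- replicates 3 and 4 and at most 4.09 CPM elsewhere. The mean level of the B, T and NK, and monocyte, macrophage and dendritic markers was used as a covariate in an alternative fit, and the counts of that fit stand beside those of the lists it moved. Centred on a log2 scale, this covariate was 0.40, 0.54, 0.24 and -0.20 in WT. In Cxcr2-/- it was -0.35, -0.65, -0.09 and 0.11. Since it differed with genotype, that fit cannot fully separate genotype from marker level.

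Over the 9 members, 4 passed the test between the genotypes (edgeR's quasi-likelihood test, adjusted p under 0.05 over all genes tested): Mxd3, Mlx and Myb were higher in Cxcr2-/- and Mnt was lower. Among all genes tested 44.7% passed, 23.7% higher and 21.0% lower, so the members' count was near the background. The groups did not overlap in these same 4 members, against 41.6% of all genes, and the same 4 passed with the markers of other cells as a covariate. The median log2 fold change of the 9 members was 0.04, and that of all genes was 0.01. When a change of at least 1.5-fold was also asked for, 3 members were higher and 0 lower, where 31.3% of all genes met that rule (15.7% in each direction). In bulk libraries, fewer cells that carry an RNA and less of that RNA in each cell cannot be told apart, and this holds for every difference below.

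**Figure D1:**
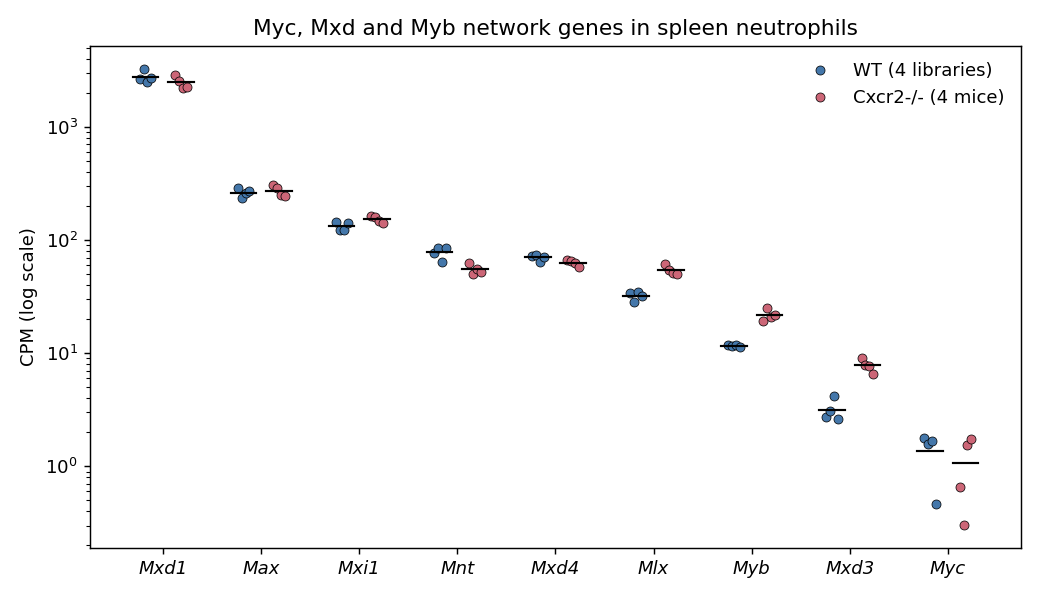
Level of the 9 network genes in each library, in CPM on a log scale, with WT in blue and Cxcr2-/- in red (4 libraries each) and a bar at the group mean. The colours separate for Mnt, Mlx, Myb and Mxd3, and Myc spreads from 0.304 to 1.79 CPM with both colours at the top and the bottom.

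Myc itself was a gene of low level in all libraries. It was at 1.79, 1.57, 1.68 and 0.463 CPM in the 4 WT libraries, from 81, 78, 63 and 16 counts, and at 0.657, 0.304, 1.55 and 1.75 CPM in the 4 Cxcr2-/- libraries, from 26, 11, 61 and 72 counts. The groups overlapped over almost their whole range, with 1 low library in WT and 2 in Cxcr2-/-. The mean was 1.38 ± 0.616 CPM in WT and 1.07 ± 0.695 CPM in Cxcr2-/-, a log2 fold change of -0.37 (SE 0.50, edgeR adjusted p = 0.579). Its 95% interval ran from -1.46 to 0.72, so neither a fall of more than a factor of 2 nor a rise of 1.5-fold was outside it. Counting error did not cover the spread: the exact Poisson 95% interval of the low WT library, 0.265 to 0.752 CPM, did not reach that of the highest, 1.42 to 2.23 CPM. These intervals cover counting error only.

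The 3 libraries with the least Myc RNA were also the 3 with the lowest level of B cell, T and NK cell, and monocyte, macrophage and dendritic markers. On the mean log2(CPM + 1) of those markers, centred over the 8 libraries, they stood at -0.65, -0.35 and -0.20, while the other 5 ran from -0.09 to 0.54. With that marker level as a covariate in the edgeR fit, the log2 fold change of Myc turned to 0.98 (adjusted p = 0.0613). The direction of Myc between the genotypes was thus not settled by these libraries. In the 2 Cxcr2-/- libraries with more Myc, replicates 3 and 4, the summed level of the 5 primary granule genes was 236 and 386 CPM, and in the 2 with less it was 70.5 and 71.8 CPM.

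**Figure D2:**
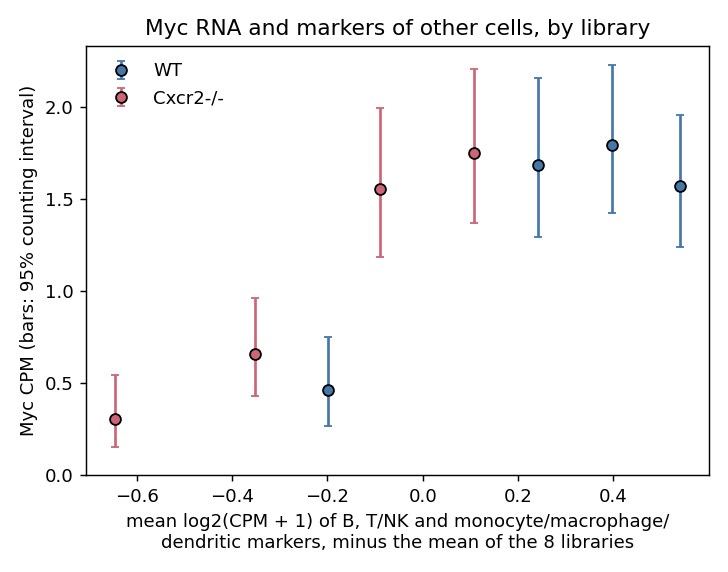
Myc level in CPM (vertical axis, bars are exact Poisson 95% counting intervals) against the centred mean log2(CPM + 1) of the markers of B, T/NK and monocyte, macrophage and dendritic cells (horizontal axis), 1 point per library, WT in blue and Cxcr2-/- in red. The 3 libraries at or under 0.657 CPM of Myc are the 3 furthest left, and the other 5 lie between 1.55 and 1.79 CPM.

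Max, the partner that Myc and its antagonists share, was abundant and close between the groups. Its level was 291, 235, 258 and 269 CPM in WT and 304, 287, 248 and 243 CPM in Cxcr2-/-. The ranges overlapped, and the log2 fold change was 0.04 (SE 0.11, edgeR adjusted p = 0.783, 95% interval -0.19 to 0.27). Its sign changed with the scaling of the libraries, to -0.080 when the upper quartile was used.

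Mxd1, the repressor tied to granulocyte differentiation, was the most abundant member in every library. It stood at 2653, 3264, 2479 and 2685 CPM in WT, and at 2898, 2519, 2216 and 2263 CPM in Cxcr2-/-. Only 1 WT library lay above the Cxcr2-/- range. The Cxcr2-/- libraries at 2216 and 2263 CPM lay below the WT range, and the remaining values were mixed. The mean was 2770.3 ± 341 CPM in WT and 2474 ± 312 CPM in Cxcr2-/-, with a log2 fold change of -0.16 (SE 0.13, edgeR adjusted p = 0.333, 95% interval -0.44 to 0.12). Per kilobase of exon, Mxd1 ranked between 44 and 109 of 16539 genes over the 8 libraries, while Myc ranked between 11697 and 15170.

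The excess of Mxd1 over Myc RNA was large in all libraries. For each Myc count there were 1482, 2082, 1472 and 5803 Mxd1 counts in WT, and 4409, 8275, 1429 and 1293 in Cxcr2-/-. The groups overlapped, and both the lowest and the highest ratio were found in Cxcr2-/-. The log2 ratio of Myc to Mxd1 counts was -11.13 ± 0.92 in WT and -11.46 ± 1.27 in Cxcr2-/-, a difference of -0.33 that was smaller than either SD and turned to 0.17 without Cxcr2-/- replicate 2.

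Mxd3, the family member usually found in dividing cells, rose the most. It was at 2.74, 3.07, 4.20 and 2.63 CPM in WT and at 9.15, 7.83, 7.68 and 6.61 CPM in Cxcr2-/-. Every Cxcr2-/- library lay above every WT library, and the mean went from 3.16 ± 0.715 to 7.82 ± 1.04 CPM. This was a 2.47-fold rise, with a log2 fold change of 1.31 (SE 0.18, edgeR adjusted p = 1.09e-04), and the largest adjusted p without any 1 library was 6.06e-04. Mxd3 shares 105 exonic bases with Prelid1, a mitochondrial lipid transfer gene on the opposite strand, which rose by a like amount, from 75.4 ± 14.4 to 189 ± 18.4 CPM (log2 fold change 1.32, edgeR adjusted p = 6.83e-06). Mxd3 stood at 2.89 to 5.41% of the Prelid1 count in WT and 3.85 to 4.27% in Cxcr2-/-. Genes nested wholly in exons of another gene were at 0 counts on either strand, so reads on the shared bases appeared to count for neither gene. The counting showed no sign of strand being used. Any Prelid1 reads on Mxd3 exons outside the shared bases therefore cannot be told apart from Mxd3 reads here.

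The other Mxd genes moved less. Mxd4 was at 72.8, 74.4, 64.0 and 70.5 CPM in WT and 67.0, 65.9, 62.3 and 57.8 CPM in Cxcr2-/-, with a log2 fold change of -0.15 (SE 0.09, edgeR adjusted p = 0.166). The ranges overlapped at the lowest WT library, and the gene passed the test as lower only where libraries were scaled by the upper quartile (-0.27, adjusted p = 0.0167) or by total counts (-0.25, adjusted p = 0.0232). Mxi1 was at 146, 122, 123 and 142 CPM in WT and at 162, 159, 148 and 141 CPM in Cxcr2-/-, a log2 fold change of 0.20 (SE 0.09, edgeR adjusted p = 0.109, 95% interval -0.01 to 0.40). Only the lowest Cxcr2-/- library fell within the WT range of Mxi1.

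Mnt, the broadly expressed repressor of the network, fell in Cxcr2-/- neutrophils. The WT libraries were at 77.0, 85.8, 64.1 and 84.3 CPM, and the Cxcr2-/- libraries at 62.3, 50.3, 55.5 and 51.7 CPM. The groups did not overlap, though the lowest WT and the highest Cxcr2-/- library were close. The mean went from 77.8 ± 9.90 to 55.0 ± 5.36 CPM, a log2 fold change of -0.50 (SE 0.11, edgeR adjusted p = 0.00249) or 1.42-fold lower, which is under the 1.5-fold mark. It was the only member that passed as lower with the scaling used throughout.

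Mlx, the partner of the Mondo proteins, rose. It was at 33.9, 28.2, 34.6 and 31.9 CPM in WT and at 61.3, 54.4, 51.1 and 50.3 CPM in Cxcr2-/-. The lowest Cxcr2-/- library was well above the highest WT library. The mean went from 32.1 ± 2.89 to 54.3 ± 5.03 CPM, a 1.69-fold rise with a log2 fold change of 0.76 (SE 0.10, edgeR adjusted p = 6.18e-05). Mlx shares 385 exonic bases with Psmc3ip on the opposite strand, whose mean differed by 1.13 CPM between the genotypes against 22.1 CPM for Mlx.

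Myb, the progenitor factor, also rose, and had the smallest spread of the members in WT. Its level was 11.7, 11.5, 11.7 and 11.4 CPM in WT, a coefficient of variation of 1.40%, and 19.3, 24.9, 20.8 and 21.6 CPM in Cxcr2-/-, a coefficient of 11.0%. The WT coefficient came from 394 to 573 counts per library. It is under what counting error alone gives on average, so it does not measure how steady the gene is. All Cxcr2-/- libraries were above all WT libraries. The mean went from 11.6 ± 0.162 to 21.6 ± 2.38 CPM, a 1.87-fold rise with a log2 fold change of 0.90 (SE 0.11, edgeR adjusted p = 2.57e-05). The antisense gene Gm26577, which shares 559 exonic bases with Myb, differed by 0.881 CPM between the groups against 10.1 CPM for Myb.

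**Figure D3:**
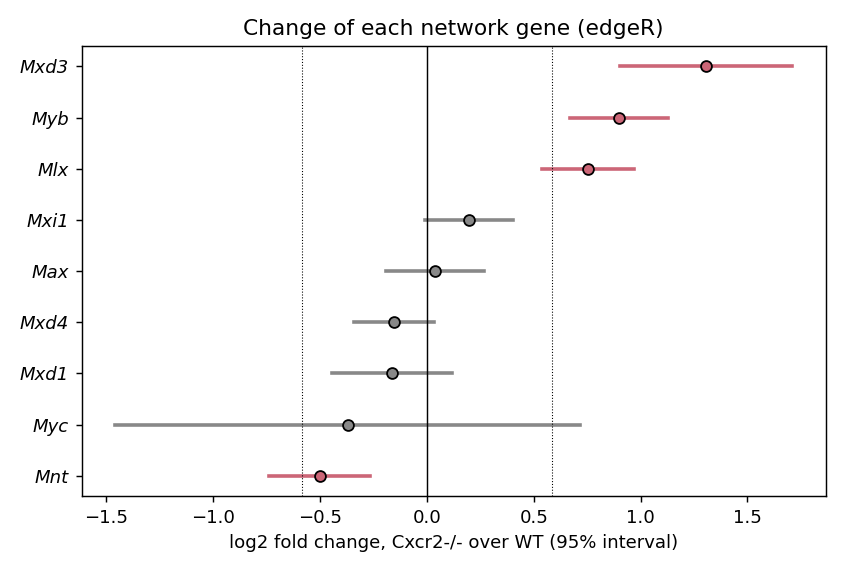
Log2 fold change of each network gene, Cxcr2-/- over WT (horizontal axis), with its 95% interval from edgeR, in red where the adjusted p is under 0.05 and in grey otherwise, and dotted lines at 1.5-fold. Mxd3, Myb and Mlx lie right of the upper line, Mnt lies left of 0, and the interval of Myc spans -1.46 to 0.72.

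Per kilobase of exon, the order of the members' levels was alike in both groups apart from Mlx. In WT it ran from Mxd1 (392 CPM per kb) over Max (73.1) to Mxi1 (19.5), Mnt (16.8) and Mlx (16.1), then Mxd4 (8.30), Mxd3 (1.33), Myb (1.30) and Myc (0.507). The ranges of Mxi1 and Mnt, of Mnt and Mlx, and of Mxd3 and Myb overlapped, so the order within these pairs was not larger than their spread. In Cxcr2-/-, Mlx at 25.2 to 30.7 CPM per kb stood above Mxi1 at 20.6 to 23.7, and Mnt at 10.9 to 13.5 stood below both. Myb and Mxd3 met at 2.79 CPM per kb, the highest Myb and the lowest Mxd3 value. Bases shared with opposite-strand genes were kept in these lengths, 385 of the 1999 in Mlx. Reads there appeared to count for neither gene, so Mlx per kilobase may be too low here. The place of Mlx beside Mxi1 and Mnt in WT was therefore not settled.

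The RNAs of 6 members whose proteins compete for Max were summed: Myc, Mxd1, Mxd3, Mxd4, Mxi1 and Mnt. Max partners outside the members, such as Mga, were not in the sum. Mxd1 made up nearly all of this sum per kilobase: 88.6 to 90.7% in WT and 87.5 to 89.3% in Cxcr2-/-. Mnt took 3.53 to 4.25% in WT and 2.71 to 3.35% in Cxcr2-/-, and Mxi1 took 3.51 to 5.04% and 5.16 to 6.06%. The share of Mxd3 was 0.255 to 0.451% in WT and 0.771 to 0.904% in Cxcr2-/-, still far under that of Mxd1. Myc was at most 0.178% of the sum. The summed partners exceeded Max itself by a factor of 5.24 to 7.79 in WT and 5.04 to 5.43 in Cxcr2-/-, on the same scale. These are shares of RNA, with no test, and say nothing of the proteins.

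Other proteins of the network split in direction. Of 7 such genes, 5 could be tested: 1 was higher and 2 were lower in Cxcr2-/-. Among all genes, 23.7% were higher and 21.0% lower. Mybl2, the Myb relative of dividing cells, rose from 3.27 ± 0.348 to 6.63 ± 1.36 CPM (log2 fold change 1.02, edgeR adjusted p = 6.00e-04). Mga, a large Max partner that acts in a repressive complex, fell from 112 ± 12.5 to 70.8 ± 6.26 CPM (log2 fold change -0.66, edgeR adjusted p = 2.27e-04). Mycl, a Myc relative of dendritic cells, was at 1.68, 3.07, 1.02 and 0.521 CPM in WT and 0.607, 0.249, 0.457 and 0.924 CPM in Cxcr2-/-, with overlapping groups. It passed at an edgeR adjusted p of 0.0301 (log2 fold change -1.49), but not without WT replicate 1 or 2 or Cxcr2-/- replicate 1, 2 or 3 (0.0514 to 0.134), and not with the markers of other cells as a covariate (adjusted p = 0.98). Mlxip, the Mondo partner of Mlx, had a log2 fold change of -0.24 (edgeR adjusted p = 0.0583) and passed as lower in 7 of 16 alternative fits, among them DESeq2 (-0.26, adjusted p = 0.0442), while Mybl1 had 0.56 (0.103). Mycn was at 0 counts in all 8 libraries, and Mlxipl was too low to test.

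Both genes of a short list of Mondo and Mlx targets were lower in Cxcr2-/-, against 21.0% of all genes. Txnip, the thioredoxin-binding arrestin that restrains glucose uptake, was at 1769, 1287, 1136 and 1809 CPM in WT and 699, 795, 522 and 623 CPM in Cxcr2-/- (log2 fold change -1.19, edgeR adjusted p = 1.38e-04). Arrdc4, an arrestin of the same family, went from 189 ± 26.5 to 79.2 ± 13.6 CPM (log2 fold change -1.25, edgeR adjusted p = 1.48e-05). The groups overlapped in neither gene, where 41.6% of all genes did not overlap. Any link of these values to the rise of Mlx was not tested.

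Among 10 Myc co-activators and partners, 4 were higher and 0 lower, with a median log2 fold change of 0.29, against 23.7% higher and 21.0% lower among all genes. Hcfc1, a scaffold of chromatin complexes, had the largest change, from 55.4 ± 6.69 to 129.9 ± 23.4 CPM (log2 fold change 1.23, edgeR adjusted p = 1.50e-05). Ruvbl2, an ATPase of the Tip60 complex, changed by 0.85, Kat5, its acetyltransferase, by 0.59, and Wdr5, which helps recruit Myc to chromatin, by 0.56. The other 6, among them Trrap and Ep400, did not pass, and Kat2a passed as higher with the covariate for other cells (0.96, adjusted p = 0.0249), which made 5. Among the co-repressor genes that Mxd and Mnt recruit, the deacetylase Hdac1 was higher (0.41, edgeR adjusted p = 0.00349) and Ncor1 was lower (-0.51, adjusted p = 0.00254). With the covariate Hdac1 kept most of its change but not its call (0.33, adjusted p = 0.0519), and Hdac2 passed as higher (0.58, adjusted p = 0.0341). Without Cxcr2-/- replicate 1, Sin3b and Hdac2 passed too. The Myb co-activators Crebbp and Ep300 both had a log2 fold change of -0.11 and did not pass.

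Of 9 genes that control the stability of Myc protein, 2 were higher and 2 lower, a share near that of all genes in each direction (23.7% and 21.0%). Cip2a, which shields Myc from the phosphatase PP2A, rose from 8.79 ± 1.93 to 31.0 ± 4.13 CPM (log2 fold change 1.82, edgeR adjusted p = 3.02e-06). Fbxw7, the ubiquitin ligase subunit that marks Myc for destruction, fell by 0.29 on the log2 scale (edgeR adjusted p = 0.0113). Gsk3b, the kinase that prepares that step, had -0.29 (adjusted p = 0.0207), and the phosphatase subunit Ppp2r5a had 0.28 (adjusted p = 0.0481). Ppp2r5a passed in 1 of 16 alternative fits, and Gsk3b did not pass without WT replicate 4 or Cxcr2-/- replicate 3, and without either the list counted 2 in place of 4.

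Genes that Myc is known to induce moved both ways in the fit without covariates. Of 35 genes of the nucleolus and ribosome assembly, 6 were higher and 4 lower, with a median log2 fold change of -0.01, in each direction a smaller share than among all genes. Bysl and Ebna1bp2, both ribosome assembly factors, rose by 0.80 and 0.64 (edgeR adjusted p = 0.00522 and 7.01e-04). Ncl, the main nucleolar protein nucleolin, fell by 0.54 on the log2 scale (adjusted p = 0.0127). With the covariate for other cells, which itself differed between the genotypes, the balance changed. Of the 35, 10 were then higher and 0 lower, with a median of 0.40. In that fit Nop16, Wdr12, Mybbp1a, Utp20 and Ddx18 passed as higher (1.18 to 1.58), and Bysl (0.38, adjusted p = 0.198) and Ncl (-0.31, adjusted p = 0.166) did not pass. These 5 are named with their values already known. The list counted 6 in place of 10 without WT replicate 4 or without Cxcr2-/- replicate 3.

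Of 37 Myc targets of metabolism and growth, 35 could be tested, and 12 were higher and 4 lower, with a median of 0.30, against 23.7% higher and 21.0% lower among all genes. With the covariate for other cells 16 were higher and 3 lower, with a median of 0.57. Slc7a5 encodes a subunit of a transporter of large neutral amino acids. It was at 8.04 to 8.71 CPM in WT and 23.8 to 37.9 CPM in Cxcr2-/- (log2 fold change 1.84, edgeR adjusted p = 7.95e-07). The cell cycle phosphatase Cdc25a (1.52), lactate dehydrogenase Ldha (1.04) and hexokinase Hk2 (0.73) rose as well. Ccnd2, a cyclin that opens the cell cycle, fell from 49.8 ± 6.94 to 15.0 ± 3.04 CPM (log2 fold change -1.73, edgeR adjusted p = 1.90e-06), and Exosc5 (-0.83) and Shmt1 (-0.51) were lower with it.

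Genes known to be repressed by Myc were mostly lower: 4 of the 5 tested fell and 0 rose, with a median of -0.97, against 21.0% lower among all genes. Cdkn1b, which encodes the cyclin-dependent kinase inhibitor p27, was at 473, 392, 405 and 432 CPM in WT and 183, 215, 223 and 247 CPM in Cxcr2-/- (log2 fold change -0.97, edgeR adjusted p = 2.05e-05). Ndrg1, a stress and differentiation gene, went from 125 ± 5.99 to 62.1 ± 7.68 CPM (-1.01, adjusted p = 6.79e-06), and Gadd45a, a growth arrest gene, from 145 ± 7.85 to 104 ± 6.64 CPM (-0.49, adjusted p = 5.86e-04). Cdkn2b was low, at 0.321 to 0.764 CPM in WT and 0.0506 to 0.221 CPM in Cxcr2-/-, and its call (-1.67, adjusted p = 0.0131) was lost without WT replicate 2 (-1.40, adjusted p = 0.0524) and with the covariate (-1.37, adjusted p = 0.123), at a fold of like size. Cdkn1a had -0.44 and did not pass (0.232). Myc RNA itself had no call in either direction beside these values.

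Of the 8 Myb targets 4 were higher and 0 lower, against 23.7% higher among all genes. The primary granule enzymes Mpo, Elane and Prtn3 and the mitotic cyclin Ccnb1 were higher, and the progenitor genes Kit, Cd34, Bcl2 and Cdk6 did not pass, with log2 fold changes of 0.36, -0.34, -0.06 and -0.02, though Kit passed as higher with the covariate (1.02, adjusted p = 0.00101) and without WT replicate 2 (0.67, adjusted p = 0.0219). Mpo, myeloperoxidase, was at 1.5, 2.35, 6.25 and 1.13 CPM in WT and 19.1, 20.2, 81.2 and 146 CPM in Cxcr2-/- (log2 fold change 4.58, edgeR adjusted p = 2.26e-04). Elane and Prtn3 changed by 5.15 and 4.86, and like Mpo they were several times higher in Cxcr2-/- replicates 3 and 4 than in replicates 1 and 2. Some markers of other cells were also higher in that pair. B cell markers summed to 56.6 and 71.6 CPM against 35.1 and 30.8 CPM. Monocyte, macrophage and dendritic markers summed to 293 and 299 CPM against 219.7 and 202 CPM. The T and NK cell list went the other way, at 102.3 and 97.2 CPM against 141.7 and 119.5 CPM. The level of Myb, between 19.3 and 24.9 CPM over these 4 libraries, did not set replicates 3 and 4 apart from 1 and 2. Ccnb1 was even within each group, at 5.15 to 6.45 CPM in WT and 28.7 to 31.5 CPM in Cxcr2-/- (2.38, adjusted p = 3.49e-08). Mpo, Elane and Prtn3 are also in the list of primary granule genes.

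Cell cycle genes moved beside the members: 22 of 24 were higher and 0 lower, against 23.7% higher and 21.0% lower among all genes. Their sum was 559 to 620.5 CPM in WT and 1429 to 1586 CPM in Cxcr2-/-. Ube2c (2.56), Plk1 (2.23), Birc5 (2.10) and Bub1 (2.09), all genes of mitosis, had the largest log2 fold changes among those of sufficient level. Mcm4 (0.18) and Pcna (-0.43), both of DNA replication, did not pass, but Pcna passed as lower in 7 of 16 alternative fits, among them DESeq2 (-0.45, adjusted p = 0.0417). The secondary granule genes Ltf, Camp, Ngp, Lcn2 and Chil3 summed to 21889 to 26671 CPM in WT and 51013 to 73718 CPM in Cxcr2-/-. The part of these cell cycle and granule gene differences in those of Mxd3, Mlx, Myb and Mnt was not tested.

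**Figure D4:**
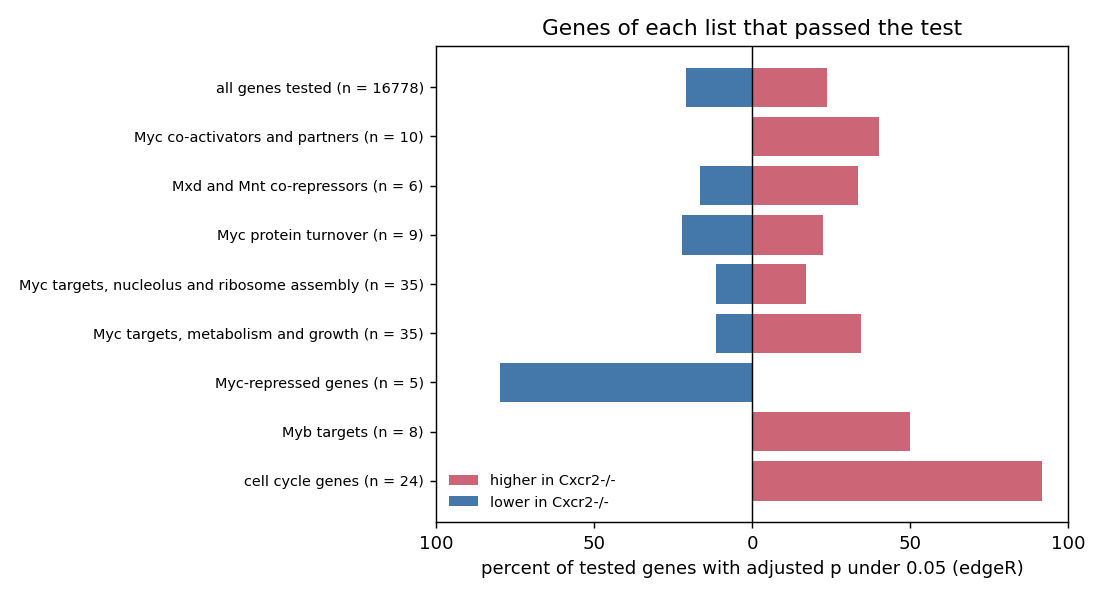
Percent of the tested genes of each list with an edgeR adjusted p under 0.05, to the right in red where higher in Cxcr2-/- and to the left in blue where lower, with the number tested in brackets and all 16778 genes at the top. The Myc-repressed genes reach 80.0% on the lower side, the cell cycle genes 91.7% on the higher side, and the nucleolar Myc targets are at 17.1% higher and 11.4% lower.

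The genes nearest to a member in profile over the 8 libraries were looked up by the smallest root mean square difference of centred log2(CPM + 1). For Myb these were Adss (0.053), a purine synthesis enzyme, Ocrl (0.053), an inositol phosphatase, and Rad17 (0.067), a DNA damage checkpoint gene. For Mxd1 they were Ppp1r3b (0.057), which targets a phosphatase to glycogen, Tns3 (0.059) and Wdfy4 (0.069). For Myc the nearest genes were farther off, at 0.193 for Itm2c, 0.199 for Gm24119 and 0.201 for the glycogen phosphorylase Pygb. Each search ran over 7501 or 7502 genes and describes likeness of profile alone.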

How the data were processed

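Neutrophil RNA from 8 spleen samples was sequenced by the authors with a ribosomal RNA depletion and directional kit. Per the study's methods, reads trimmed to a minimum length of 120 bases were aligned to mm10 with STAR and counted per gene with HTSeq, and the deposited values are raw counts of 1 column per sample. Versions and the strand setting are not given in the sources used here. Genes nested wholly in exons of the opposite strand (19 of 19) were at 0 counts, as were those nested on the same strand (6 of 6), so strand appeared unused. Of the 55414 identifiers, 52081 are in GENCODE M21 (GRCm38), which gave symbols and exon lengths, 52046 of them with another version number, so the counts rest on another release than M21 and lengths are approximate. HTSeq's closing totals were left out, and reads on no gene were 31.4 to 41.5% of the total in WT and 26.7 to 31.9% in Cxcr2-/-.

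Counts were scaled by TMM, filtered with filterByExpr and tested with edgeR 4.0.16 (quasi-likelihood test, no covariate, Benjamini-Hochberg over all genes tested, R 4.3.3). A gene passed at an adjusted p under 0.05, and was called where the change was also at least 1.5-fold. DESeq2 1.42.0, other scalings, filters and thresholds, a replicate block, a covariate for other cells and leaving out each library were alternatives, and the fit was tested on simulated counts. Members and gene lists were chosen with earlier results of these data known, so no list was tested as a set and counts stand beside those of all genes. Named were the members, genes of the short lists as each count needs, and, of the Myc target and cell cycle lists, up to 4 rising and 4 falling genes with the largest change at an average log2 CPM of at least 3. A chi-square of 24.3 to 98.3 per gene showed that no library of a group was a copy of another. Some members of the gene lists are counted but not reported here by name.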

Additional observations from a re-analysis of the deposited data

Results flagged for a closer look

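The Myc level of WT replicate 4, 0.463 CPM, was set apart from the other WT libraries, which lay between 1.57 and 1.79 CPM, by a gap of more of the group's range than Dixon's test allows for 4 values. This was 1 of 22 groups of values checked, and chance alone flags about 1 in 20. Without that library the log2 fold change of Myc was -0.65 (edgeR adjusted p = 0.293), and over all 8 libraries left out in turn it ran from -0.73 to -0.06.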

How the results depend on the processing

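The 4 members that passed, Mxd3, Mnt, Mlx and Myb, were the same 4 genes in all 16 other fits, and Mxd4 joined them as lower with upper-quartile scaling and with total counts, which made 2 members lower in place of 1. Upper-quartile scaling moved the median of all genes to -0.11, and split the called genes into 1975 higher and 3227 lower, against 2628 and 2628 with TMM. A 2-fold threshold left 2854 of the 5256 called genes, since fewer reach it. The sign of genes with no call turned for Myc, at 0.98 with the covariate for other cells, and for Max, at -0.080 with upper-quartile scaling, -0.052 with total counts, -0.093 with the covariate, and -0.035 and -0.015 without WT replicate 2 or Cxcr2-/- replicate 1, with a range of -0.035 to 0.095 over the libraries left out. The cause of these turns was not tested. Over the libraries left out, the number of genes that passed ranged from 3 to 5 among co-repressors, 2 to 4 among genes of Myc protein turnover, and 6 to 9 among nucleolar Myc targets. With the replicate number as a block, 4 members passed as before. No clear pairing by number was seen: deviations of same-numbered libraries correlated between -0.31 and 0.24, above 0.1 in 2 of 4 pairs. So few pairs, with no test, cannot exclude a pairing. Myc had the fewest counts of the members, 11 to 81 per library.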
